A study of Homo sapiens with 6 samples.

Results

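The IgE and IL-33 receptor genes described here across the 6 libraries of the study are MS4A2, FCER1G, IL1RL1, HPGDS and MS4A3, which make up 5 of the 14821 genes of the deposited table. They are a list of names, chosen among genes already known to be higher with ERG, that encode the beta and gamma chains of the high-affinity IgE receptor (MS4A2 and FCER1G), the IL-33 receptor (IL1RL1), the haematopoietic prostaglandin D synthase (HPGDS) and a relative and chromosomal neighbour of MS4A2 (MS4A3). Since the contrast of ERG with vector led to the choice, for these 5 genes the differences between the groups are given as a description and without a test. All 5 passed the filter on low counts (at least 1 CPM, reads scaled to a common library size, in at least 3 libraries), as did 14203 genes in all.

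The cells were F36P, an established human erythroleukaemia line. In 3 libraries the cells had been transduced with MSCV-PIG-AM-ERG, a retroviral plasmid that carries ERG, an ETS-family transcription factor, and in the other 3 (the vector group, of genotype WT in the labels) with the empty plasmid MSCV-PIG. Cells of both groups had been kept in 1 µg/ml puromycin for 4 days. The labels call the replicates biological but name no separate cultures or transductions, and p-values therefore measure the spread between these samples, which may be technical. The submitters' question was how ERG holds back erythroid differentiation.

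The high-affinity IgE receptor of mast cells and basophils is built from an IgE-binding alpha chain (FCER1A), a signal-amplifying beta chain (MS4A2) and a pair of gamma chains (FCER1G), whose tyrosine motifs are phosphorylated by LYN and then recruit SYK. The same cells carry IL1RL1, also called ST2, which binds the alarm cytokine IL-33 and signals with IL1RAP through MYD88 and the IRAK kinases to NF-kB and p38. HPGDS turns the cyclooxygenase product prostaglandin H2 into prostaglandin D2, the main prostaglandin of mast cells, which acts on the receptors PTGDR and PTGDR2. MS4A3 is a four-pass membrane protein of basophils and of granulocyte precursors.

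The libraries held 10257141 to 14803031 counts. ERG itself stood at 97.4 to 104 CPM in the ERG and 14.6 to 28.1 CPM in the vector libraries (CPM here and below are scaled by TMM, the trimmed mean of M-values). The counts of the first 2 ERG replicates differed by a chi-square of 2.20 per degree of freedom, beside 21.6 to 86.9 in every other pair of libraries. By correlation across genes (log2 CPM), the library nearest to vector replicate 1 was ERG replicate 1 (r = 0.967), and the one nearest to ERG replicate 3 was vector replicate 3 (r = 0.974). Values are therefore also given within 2 sets, ERG replicates 1 and 2 with vector replicate 1, and ERG replicate 3 with vector replicates 2 and 3. All 13 listed erythroid markers were measured, and their summed level was 3674 to 6688 CPM in ERG and 11067 to 18878 CPM in vector libraries. The summed mast cell and basophil markers (18 of 27 measured) stood at 4343 to 4385 CPM in ERG and 2397 to 2942 CPM in vector libraries, while the 4 measured lymphoid markers (of 12) summed to 36.8 to 56.7 and 26.1 to 49.0 CPM. A few genes with high levels weigh heavily in such sums. They include HBG2 among the erythroid markers (means of 1818 with ERG and 8181 CPM with vector). Among the mast cell markers they include GATA2 (1176 and 548 CPM) and CPA3 (932 and 150 CPM). In bulk RNA, fewer cells of a type and less RNA per cell cannot be told apart.

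All 5 genes stood higher in each of the 3 ERG libraries than in any vector library. Such a separation in that direction was seen for 12.3% of all tested genes, and 1.47% of tested genes passed as higher with ERG (edgeR quasi-likelihood test, adjusted p under 0.05). Nothing is read from these shares about the 5 genes, because the same contrast led to their choice. Their log2 differences (ERG minus vector) were 1.52 to 5.02 with a median of 2.38. The median over all tested genes was -0.01, a gap that follows from that choice and is likewise not read as a result.

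**Figure D1:**
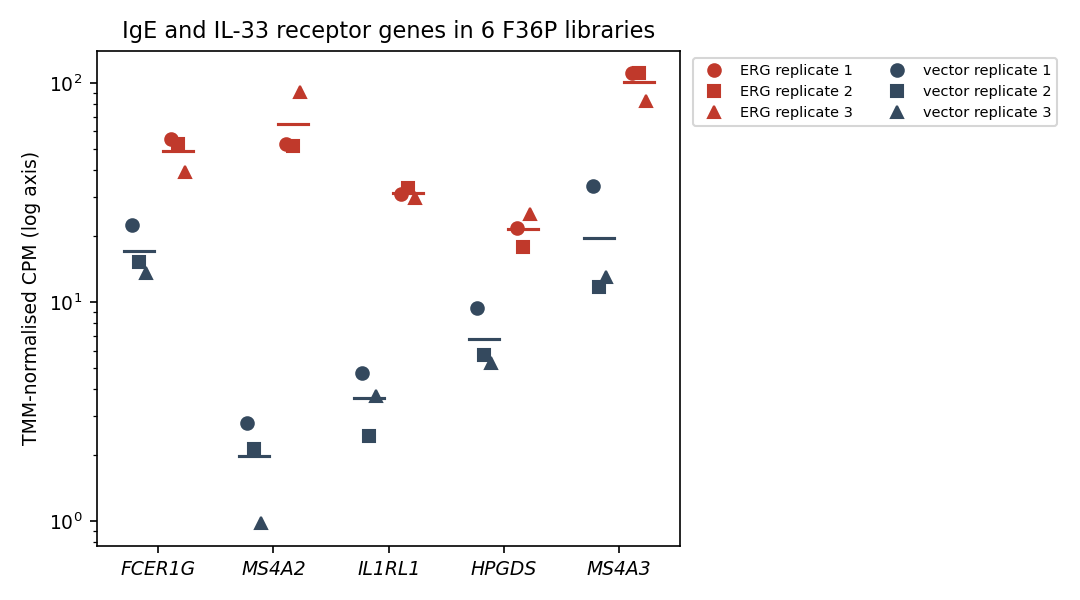
TMM-normalised CPM (log axis) of the 5 genes in each of the 3 ERG and 3 vector libraries; marker shape gives the replicate and the short lines are group means. For each gene the ERG libraries lie above all vector libraries, from 51.5 to 90.9 against 0.978 to 2.82 CPM for MS4A2 and from 39.2 to 55.2 against 13.5 to 22.3 CPM for FCER1G.

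FCER1G encodes the gamma chain, a small adaptor that several Fc receptors and platelet and lectin receptors share. In GENCODE release 29 (hg38) the gene spans bases 161215234 to 161220699 of chromosome 1, on the plus strand. Its level was 55.2, 52.3 and 39.2 CPM with ERG (here and below in the order of replicates 1 to 3) and 22.3, 15.1 and 13.5 CPM with vector. ERG replicate 3 was the lowest of its group and vector replicate 1 the highest of the other, and the groups did not overlap. The means were 48.9 ± 8.51 and 17.0 ± 4.71 CPM (SD, n = 3 each), a 2.88-fold difference (log2 1.52, SE 0.23).

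MS4A2, the beta chain, lies on chromosome 11 from 60088261 to 60098466 (plus strand). It stood at 52.4, 51.5 and 90.9 CPM with ERG, against 2.82, 2.13 and 0.978 CPM with vector. The lowest ERG library was 18.3 times the highest vector library, the widest gap among the 5 genes. Here ERG replicate 3 was the highest of its group, 1.75 times the mean of ERG replicates 1 and 2. The exact Poisson 95% intervals were 86.1 to 95.9 CPM in replicate 3, 48.6 to 56.6 in replicate 1 and 47.9 to 55.3 in replicate 2, which give the precision of each library and not the spread between samples. The vector values rest on 32, 28 and 10 reads. Summed over libraries the 2763 ERG and 70 vector counts gave a ratio of 32.5 (exact binomial 95% interval 25.7 to 41.9). These intervals cover counting error only. The fitted log2 difference was 5.02 (SE 0.41). Its rank of 9 among the 14203 tested genes is a description only, since the same contrast led to the choice of MS4A2.

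The bases before the start sites of both receptor genes are shown because they differ in the letters they hold. In each sequence printed here, 250 bases before a RefSeq start site (GRCh38.p14, an hg38 assembly) are written in lower case, 5′ to 3′. Capitals mark GGAAG, taken here for ETS-family sites (the ETS letters), and GATAA, taken for GATA-factor sites (the GATA letters), on either strand. The shorter GGAA, without the last G, is not marked and was not counted. The FCER1G sequence is chr1:161215045-161215294 (plus strand) and that of MS4A2 is chr11:60088414-60088663 (plus strand).
FCER1G: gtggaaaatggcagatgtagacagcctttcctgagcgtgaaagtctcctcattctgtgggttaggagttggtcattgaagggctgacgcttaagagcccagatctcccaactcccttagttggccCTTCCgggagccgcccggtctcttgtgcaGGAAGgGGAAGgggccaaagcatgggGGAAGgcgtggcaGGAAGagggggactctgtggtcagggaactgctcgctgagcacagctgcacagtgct
MS4A2: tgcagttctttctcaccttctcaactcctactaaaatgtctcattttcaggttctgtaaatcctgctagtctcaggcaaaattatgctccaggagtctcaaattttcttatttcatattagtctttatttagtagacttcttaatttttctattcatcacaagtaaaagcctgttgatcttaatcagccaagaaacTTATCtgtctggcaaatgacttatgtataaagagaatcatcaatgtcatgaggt

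FCER1G held the ETS letters 5 times and the GATA letters 0 times. MS4A2 held the GATA letters once, 54 bases before its start, and the ETS letters 0 times.

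The alpha chain FCER1A, the IgE-binding subunit, had few reads. Its counts were 63, 64 and 37 in the ERG libraries and 12, 7 and 0 in the vector libraries, or 4.92, 4.39 and 2.51 against 1.06, 0.533 and 0 CPM. The count of 0 in vector replicate 3 allows up to 0.293 CPM (3 counts). The log2 difference of 2.84 (SE 0.76) did not pass (edgeR adjusted p = 0.117), although the groups did not overlap and the ratio of summed counts was 7.12 (exact binomial 95% interval 4.41 to 12.1, counting error only). FCER1A passed with DESeq2 (adjusted p = 0.00388) and in an edgeR fit with a term for the 2 library sets (0.0136), and not with limma-voom (0.114). Without vector replicate 1 its log2 difference was 3.72 (edgeR adjusted p = 0.0711).

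Levels of different genes were compared as CPM per kilobase of exon, counting all exonic bases of a gene in GENCODE release 29. With vector the order was FCER1G (17.6 ± 4.88), MS4A3 (9.30 ± 5.92), HPGDS (3.22 ± 1.08), IL1RL1 (0.632 ± 0.202), FCER1A (0.455 ± 0.453) and MS4A2 (0.443 ± 0.209) CPM per kb. The libraries of FCER1G and MS4A3 overlapped in this order, as did those of the last 3 genes. With ERG the order was FCER1G (50.7 ± 8.83), MS4A3 (48.3 ± 7.64), MS4A2 (14.6 ± 5.05), HPGDS (10.2 ± 1.78), IL1RL1 (5.45 ± 0.278) and FCER1A (3.38 ± 1.09) CPM per kb. FCER1G and MS4A3 again overlapped, as did MS4A2 and HPGDS. Compared within single libraries, FCER1G stood above MS4A3 in all 6, though narrowly in ERG replicate 3 (40.7 against 39.5 CPM per kb). MS4A2 likewise stood above HPGDS within each ERG library. Divided by the longest transcript instead, FCER1A and MS4A2 changed places in the vector group (0.455 and 0.562 CPM per kb). The gamma to beta ratio per kb was 36.7, 32.8 and 63.7 in the vector libraries and 4.86, 4.69 and 1.99 in the ERG libraries. The gamma chain thus stood above the beta chain in all 6 libraries, by less in each ERG library. No source used here names the transcripts that the authors counted, so these lengths are approximate.

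**Figure D2:**
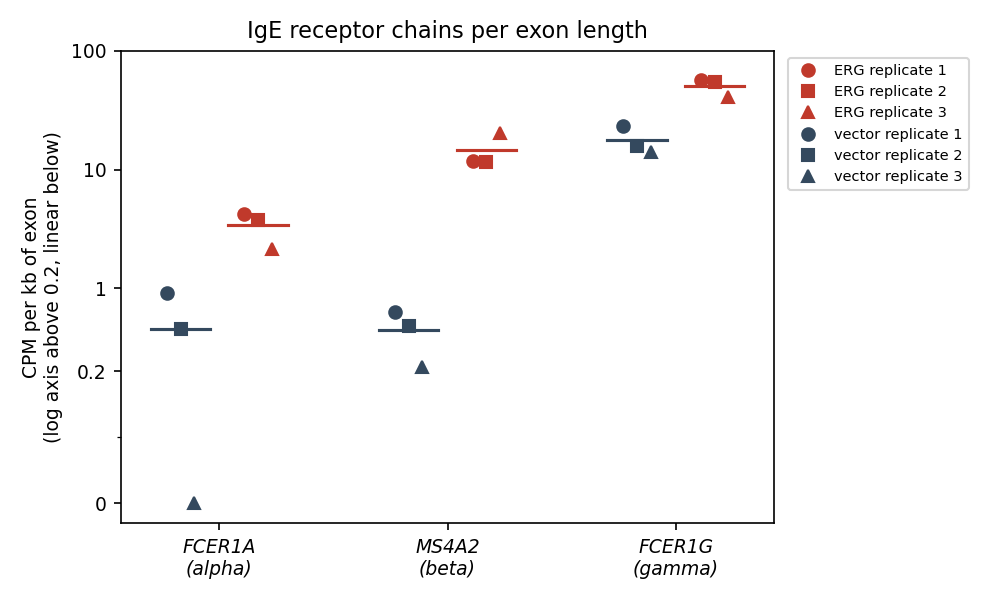
CPM per kb of exon (log axis above 0.2, linear below) of the alpha, beta and gamma chain genes of the IgE receptor in the 6 libraries, with group means as short lines. FCER1G is the highest of the 3 chains in every library, and FCER1A is at 0 in vector replicate 3.

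Of 40 other tested genes that act in IgE receptor signalling, 3 rose and 1 fell with ERG (edgeR adjusted p under 0.05), with a median log2 difference of 0.21. PIK3R6 and PIK3CG, an adaptor and the catalytic subunit of PI3-kinase gamma, rose 4.89-fold and 2.60-fold (23.9 ± 2.73 against 4.88 ± 1.68 and 44.5 ± 3.90 against 17.1 ± 3.57 CPM, edgeR adjusted p = 0.0124 and 0.0195). LAT2, a membrane scaffold of mast cells and B cells, rose 3.93-fold (22.5 ± 9.38 against 5.71 ± 1.52 CPM, edgeR adjusted p = 0.0491). This call was lost with limma-voom (adjusted p = 0.102) and in 5 of 6 fits that left out a library, and ERG replicate 3, at 11.7 CPM, stood apart from replicates 1 and 2 at 28.8 and 26.9 CPM. PIK3CD, the catalytic subunit of PI3-kinase delta, fell 2.14-fold (35.7 ± 5.07 against 76.5 ± 4.04 CPM, edgeR adjusted p = 0.0188). The kinases that act directly on the receptor did not pass with edgeR. LYN was at 456 ± 4.75 against 419 ± 30.5 CPM (log2 0.12, 95% interval -0.19 to 0.43, edgeR adjusted p = 0.698). SYK was at 5.14 ± 0.682 against 10.4 ± 2.99 CPM, with all ERG libraries below all vector libraries (log2 -1.02, edgeR adjusted p = 0.117). SYK passed as lower with DESeq2 (adjusted p = 0.0170) and with a term for the library sets (0.0333), and not with limma-voom (0.134).

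Over the 6 pathway lists together, 4 of 95 tested genes passed (4.21%), beside 2.2% of all tested genes in either direction and 0.732% as lower. The 4 calls were those of PIK3R6, PIK3CG, LAT2 and PIK3CD. At an unadjusted edgeR p under 0.05 were 37 of the 95, beside 2260 of all 14203 tested genes. DESeq2 called 1006 of its 14195 tested genes and limma-voom 269 of 14203. Counts of these kinds for single lists, here and below, are to be read beside those totals. Without ERG replicate 1, ERG replicate 2, vector replicate 2 or vector replicate 3, edgeR called 0 of the 95 (25, 23, 23 and 23 at an unadjusted p under 0.05), and without ERG replicate 3 it called 8. With a term for the library sets it called 36 of the 95, 28 higher and 8 lower, beside 1869 of all 14203 tested genes in that fit. Those sets were found in these same data and ERG replicates 1 and 2 are unusually alike, so p-values with that term may be too low. The main fit also takes these 2 libraries as separate replicates, so its p-values may be too low as well. With the 2 summed, which also leaves fewer samples, edgeR called 0 of the 95 (24 at an unadjusted p under 0.05).

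**Figure D3:**
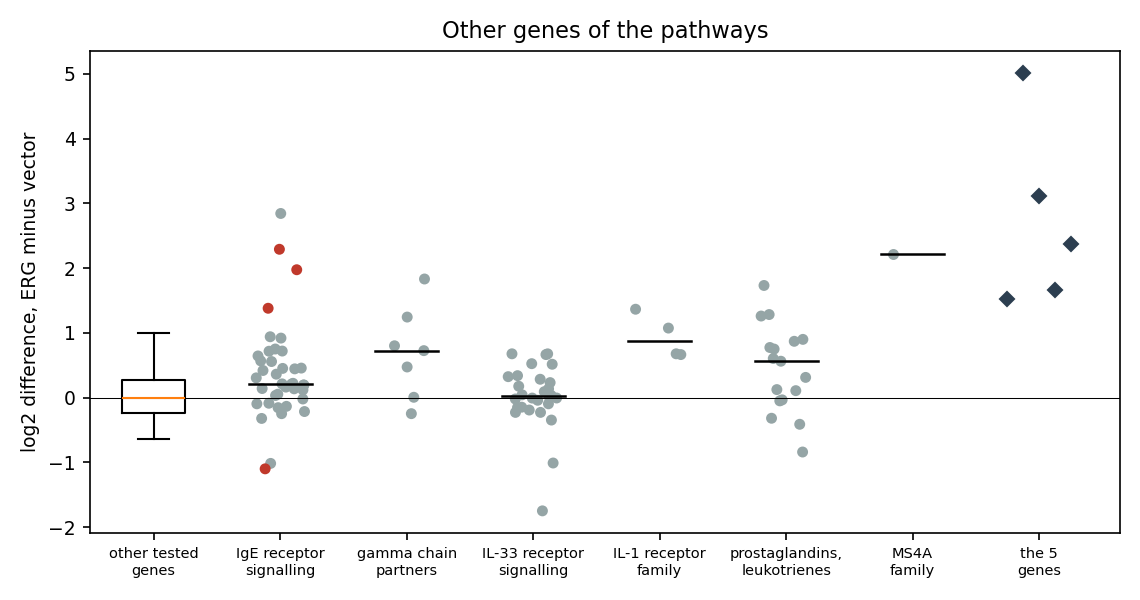
Log2 difference (ERG minus vector) of each tested gene of the 6 pathway lists, red where it passed an edgeR adjusted p of 0.05 and grey where it did not, with list medians as lines; the box at the left holds all other tested genes (quartiles, whiskers from the 5th to the 95th percentile) and the diamonds at the right are the 5 genes. The 4 red points are in the IgE receptor signalling list, and the 5 genes lie between 1.52 and 5.02.

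The list of gamma chain partner receptors and related adaptors also held receptors that do not need that chain, FCGR2A among them. The list gave 0 calls among 7 tested genes with edgeR, with a median log2 difference of 0.73. At an unadjusted p under 0.05 there was 1, and DESeq2 called 1 and limma-voom 0. FCGR2A, an Fc receptor for IgG, was at 109 ± 40.6 against 109 ± 53.2 CPM (log2 0.01, edgeR adjusted p = 0.996). TYROBP, an adaptor with the same kind of tyrosine motif as FCER1G, was at 58.8 ± 19.7 against 42.3 ± 25.1 CPM (log2 0.47, edgeR adjusted p = 0.634).

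IL1RL1, the IL-33 receptor, lies on chromosome 2 from 102311502 to 102352037 (plus strand). It was at 31.1, 33.0 and 29.9 CPM with ERG, against 4.75, 2.44 and 3.72 CPM with vector. The coefficient of variation of the ERG libraries was 5.09%, the smallest of the 5 genes, and the lowest was 6.28 times the highest vector library. The means of 31.3 ± 1.60 and 3.63 ± 1.16 CPM (SD, n = 3 each) differed 8.64-fold (log2 3.11, SE 0.26). ERG replicate 3 did not stand apart here, at 0.931 times the mean of the other two. A count per gene does not separate the membrane receptor from the secreted decoy form that the same gene encodes.

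RefSeq gives IL1RL1 start sites 25694 bases apart. The distal one is known from blood cells such as mast cells and the proximal one from fibroblasts, and counts per gene do not show which was used. The 250 bases before the distal start are chr2:102311313-102311562 (plus strand) and those before the proximal start are chr2:102337007-102337256 (plus strand), shown to set the start sites side by side.
IL1RL1 distal: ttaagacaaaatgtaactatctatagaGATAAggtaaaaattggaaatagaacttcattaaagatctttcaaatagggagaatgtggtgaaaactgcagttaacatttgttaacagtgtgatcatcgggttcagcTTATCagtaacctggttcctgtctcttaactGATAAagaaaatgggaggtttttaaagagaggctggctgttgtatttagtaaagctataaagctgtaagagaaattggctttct
IL1RL1 proximal: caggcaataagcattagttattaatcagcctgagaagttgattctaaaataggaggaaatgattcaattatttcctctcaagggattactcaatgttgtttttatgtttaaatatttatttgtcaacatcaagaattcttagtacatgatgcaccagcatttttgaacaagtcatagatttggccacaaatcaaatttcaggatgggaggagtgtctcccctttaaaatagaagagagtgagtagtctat

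The distal sequence held the GATA letters 3 times and the proximal one 0 times, and neither held the ETS letters GGAAG. Both sequences held the shorter GGAA, which is not marked.

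The partner chain of IL1RL1, IL1RAP, was at 93.9, 95.2 and 69.2 CPM with ERG and 69.9, 40.0 and 53.0 CPM with vector, and the groups overlapped (log2 0.66, edgeR adjusted p = 0.212). Of the 28 tested genes of IL-33 receptor signalling, edgeR called 0 (8 at an unadjusted p under 0.05, 3 calls with DESeq2 and 0 with limma-voom), and their median log2 difference was 0.02. The adaptor MYD88 was at 56.3 ± 11.3 against 57.1 ± 10.9 CPM (95% interval of the log2 difference -0.49 to 0.45, edgeR adjusted p = 0.970). IRAK1 was at 280.0 ± 15.4 against 278 ± 16.7 CPM and MAPK14, the p38 kinase, at 159.7 ± 1.67 against 160.5 ± 15.9 CPM (edgeR adjusted p = 0.977 and 0.985). The signs of MYD88, IRAK1 and MAPK14 differed between alternatives.

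Other receptors of the IL-1 family had higher fitted levels with ERG without passing in the main edgeR fit. They include IL1RAP, whose groups overlapped. All 4 tested genes had positive log2 differences (median 0.88) and edgeR called 0 (4 at an unadjusted p under 0.05, 2 calls with DESeq2 and 1 with limma-voom). SIGIRR, an inhibitory member of the family, was at 28.7 ± 4.08 against 17.9 ± 2.61 CPM (log2 0.68, edgeR adjusted p = 0.120). Chosen for their position beside IL1RL1, the IL-18 receptor genes IL18R1 and IL18RAP differed by 1.36 and 1.07 on the log2 scale (edgeR adjusted p = 0.0650 and 0.191), and the groups did not overlap for either gene. IL18R1 passed with DESeq2 (adjusted p = 0.000869), limma-voom (0.0499) and a term for the library sets in edgeR (0.00443). IL18RAP passed with none of these (0.134, 0.182 and 0.0835). An annotated transcript of IL18R1 runs across IL1RL1 on the same strand and shares 95 exonic bases with it, where reads of both genes cannot be told apart.

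HPGDS lies on chromosome 4 from 94298535 to 94342876 (minus strand). It stood at 21.7, 17.7 and 25.2 CPM with ERG, against 9.41, 5.71 and 5.28 CPM with vector. ERG replicate 3 was the highest of its group, and the lowest ERG library was 1.89 times the highest vector library, vector replicate 1. The means were 21.5 ± 3.75 and 6.80 ± 2.27 CPM (SD, n = 3 each), a 3.16-fold difference (log2 1.66, SE 0.27). SMARCAD1, a chromatin remodeller 7242 bases away, was at 76.0 ± 3.14 against 67.8 ± 4.78 CPM (log2 0.17, edgeR adjusted p = 0.548).

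Around HPGDS, 0 of 17 tested genes of prostaglandin and leukotriene synthesis and signalling passed with edgeR (7 at an unadjusted p under 0.05, 3 calls with DESeq2 and 0 with limma-voom), and the median log2 difference was 0.56. PTGS1, the constitutive cyclooxygenase that feeds HPGDS, was at 324, 328 and 189 CPM with ERG and 214, 119 and 127 CPM with vector, which overlapped (log2 0.87, edgeR adjusted p = 0.211). The inducible enzyme PTGS2 was low, at 4.98 ± 1.15 against 3.25 ± 1.09 CPM (log2 0.60, edgeR adjusted p = 0.453). PTGDR2, a receptor for prostaglandin D2, was at 15.9, 15.0 and 8.55 against 6.42, 5.71 and 4.01 CPM without overlap (log2 1.28, edgeR adjusted p = 0.0916). HPGD, the enzyme that degrades prostaglandins, reached 1756 CPM in ERG replicate 3 beside 516 and 485 CPM in replicates 1 and 2, and was at 175, 237 and 417 CPM with vector (log2 1.73, edgeR adjusted p = 0.191). PTGES3, a cochaperone also named as a prostaglandin E synthase, was at 373 ± 123 against 466 ± 95.7 CPM (edgeR adjusted p = 0.594).

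MS4A3 lies on chromosome 11 from 60056587 to 60071128 (plus strand), and 17132 bases separate its end from the start of MS4A2. Its level was 111, 111 and 82.8 CPM with ERG, against 33.8, 11.6 and 13.0 CPM with vector. Vector replicate 1 was at 2.74 times the mean of the other vector libraries, the widest such gap of the 5 genes. The means were 101 ± 16.0 and 19.5 ± 12.4 CPM (SD, n = 3 each), a 5.20-fold difference (log2 2.38, SE 0.41) that became 8.22-fold without vector replicate 1. The other member of the family that was tested, MS4A4E, was at 1.81 ± 0.393 against 0.390 ± 0.207 CPM (log2 2.22, edgeR adjusted p = 0.0778). These levels rest on 18, 32 and 27 reads with ERG and 6, 2 and 5 reads with vector. MS4A4E passed the filter on low counts through its ERG libraries only.

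The 250 bases before the MS4A3 start are chr11:60056415-60056664 (plus strand), given because they hold both kinds of letters and lie beside MS4A2.
MS4A3: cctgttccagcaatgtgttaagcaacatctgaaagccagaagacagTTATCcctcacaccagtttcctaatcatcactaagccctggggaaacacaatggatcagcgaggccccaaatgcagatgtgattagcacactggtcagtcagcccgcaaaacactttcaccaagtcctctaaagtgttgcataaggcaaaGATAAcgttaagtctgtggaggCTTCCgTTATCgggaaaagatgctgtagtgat

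MS4A3 held the GATA letters 3 times and the ETS letters once. The 250 bases before the HPGDS start (chr4:94342837-94343086, minus strand) held each kind 2 times. Over the 35116 RefSeq windows of this length, 65.1% held GGAAG and 20.4% held GATAA on either strand, and 12.1% held both. No GGAAG match overlapped a GATAA match in the 6 windows. The E-box letters CANNTG, not marked in the sequences, were in 61.8% of all windows and in those of all starts here but the proximal one of IL1RL1. GATAA occurred 3 or more times in 0.67% of windows, and GGAAG 4 or more times in 3.92%. The windows of MS4A2 and the distal IL1RL1 start were each 33.6% G and C, against a median of 58.0% over all windows, and base composition alone shifts how often such letters occur. These matches are letters in a sequence and not measured binding sites.

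**Figure D4:**
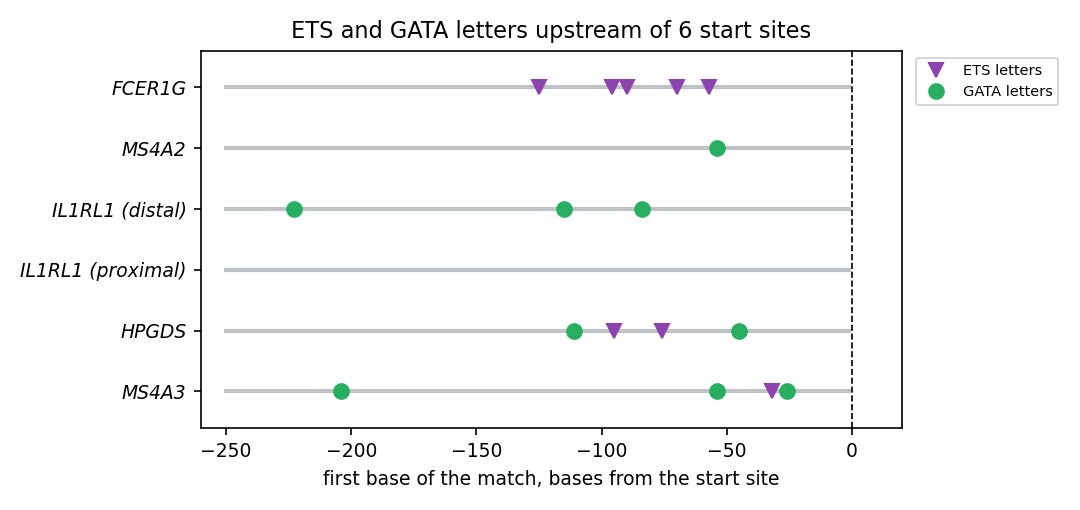
Position of the first base of each match to the ETS letters (triangles) and the GATA letters (circles), in bases from the start site, over the 250 bases before 6 RefSeq start sites of the 5 genes. FCER1G has 5 ETS matches and 0 GATA matches, while the distal start of IL1RL1 and that of MS4A3 have 3 GATA matches each.

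The 5 genes differed among themselves in how the libraries ranked. ERG replicate 3 was above the mean of ERG replicates 1 and 2 for MS4A2 (1.75 times) and HPGDS (1.28 times). It was below that mean for FCER1G (0.730 times), MS4A3 (0.749 times) and IL1RL1 (0.931 times). Vector replicate 1 was the highest vector library for all 5 genes, 1.54 to 2.74 times the mean of the other vector libraries. The ratio of MS4A3 to MS4A2 in CPM, a comparison of reads and not of levels per length, was 2.11, 2.14 and 0.910 in the ERG libraries and 12.0, 5.46 and 13.3 in the vector libraries.

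Within the set of ERG replicates 1 and 2 and vector replicate 1, the differences of log2 CPM (prior count 2) were 4.13 for MS4A2, 2.71 for IL1RL1, 1.71 for MS4A3, 1.26 for FCER1G and 1.05 for HPGDS. Within the set of ERG replicate 3 and vector replicates 2 and 3 they were 5.82 for MS4A2, 3.24 for IL1RL1, 2.73 for MS4A3, 2.17 for HPGDS and 1.45 for FCER1G. Each gene had a larger difference in the second set. Whether the sets differed was not tested, since each holds a single library of a group. The part of these library sets in the differences was not tested.

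Left out one at a time, no library changed the sign of any of the 5 genes. This could not have come out otherwise, since the groups did not overlap for any of them, and it is not read as a result. The fold difference of MS4A2 ranged from 26.0 (without ERG replicate 3) to 40.4 (without vector replicate 1), that of IL1RL1 from 7.37 to 10.3, that of MS4A3 from 4.32 to 8.22, that of HPGDS from 2.86 to 3.91 and that of FCER1G from 2.62 to 3.41. For each gene the highest value came without vector replicate 1.

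**Figure D5:**
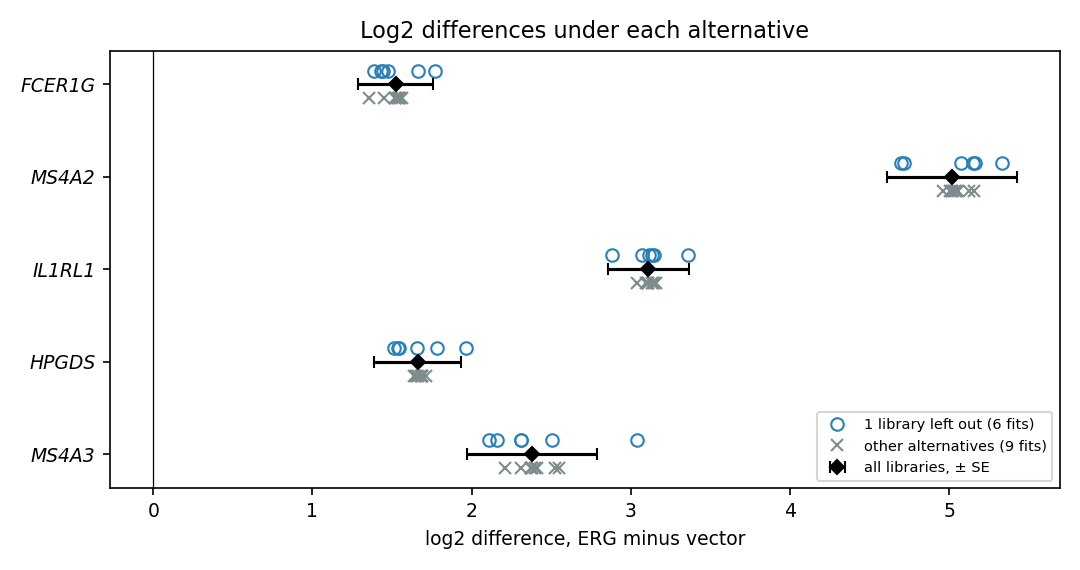
Log2 difference (ERG minus vector) of the 5 genes with all libraries (diamonds, bars give ± SE), with 1 library left out (6 circles each) and under 9 other alternatives (crosses). All values lie above 0, which follows from groups that do not overlap where 1 library is left out. MS4A3 has the widest shift, to 3.04 without vector replicate 1.

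Across the 6 libraries the log2 CPM of the 5 genes correlated pairwise at r = 0.938 (MS4A2 and MS4A3) to 0.988 (FCER1G and MS4A3). These values describe 6 libraries in 2 groups that differ, so genes separated by group correlate, and the genes named for likeness were chosen on these same libraries and get no test. Among 9972 other coding genes, those most like MS4A2 were ABCB11, PDLIM2 and SHOX2 (r = 0.999, 0.997 and 0.996). Those most like FCER1G were RASAL3, PECAM1 and CLSTN1 (0.998, 0.998 and 0.997), of which PECAM1, an adhesion molecule of platelets, leukocytes and endothelium, was at 145 ± 27.2 with ERG against 37.5 ± 11.0 CPM with vector. Those most like IL1RL1 were ARHGEF40, PDGFC and SLC45A3 (0.999, 0.998 and 0.998), with SLC45A3, a solute carrier, at 203 ± 11.4 against 51.2 ± 11.7 CPM. Those most like HPGDS were CKB, ANGPT2 and AMZ2 (0.997, 0.989 and 0.985). Those most like MS4A3 were SCAMP5, CACNA2D3 and ARHGDIB (0.998, 0.997 and 0.995), with SCAMP5, a secretory carrier membrane protein, at 9.15 ± 1.58 against 1.63 ± 0.955 CPM.

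Among 17 tested mast cell and basophil markers other than the 5 genes, 4 rose and 0 fell, beside 1.47% of all tested genes called higher (median log2 difference 0.75). CPA3, the mast cell carboxypeptidase, was at 1037, 986 and 772 against 220, 105 and 123 CPM (log2 2.64, edgeR adjusted p = 0.0124). KIT, the receptor for stem cell factor on which mast cells depend, was at 16.5, 20.1 and 16.3 against 4.84, 3.96 and 1.37 CPM (log2 2.37, edgeR adjusted p = 0.0341). SLC18A2, the vesicular transporter that loads histamine and other amines, rose 2.60-fold (83.5 ± 7.73 against 32.1 ± 5.35 CPM, edgeR adjusted p = 0.0124). GATA2, a GATA factor of progenitors and mast cells, rose 2.15-fold (edgeR adjusted p = 0.0416). Of 2 tested eosinophil markers edgeR called 0 (1 at an unadjusted p under 0.05, 1 call with DESeq2 and 0 with limma-voom). PRG2, the eosinophil major basic protein, was at 653 ± 56.4 against 941 ± 360 CPM, and SIGLEC8, a lectin of eosinophils and mast cells, at 8.87 ± 0.712 against 3.52 ± 1.25 CPM (edgeR adjusted p = 0.391 and 0.0747).

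Of 13 erythroid markers 4 fell and 0 rose in the same libraries, beside 0.732% of all tested genes called lower (median log2 difference -1.30). HBG2 and HBG1, near-identical fetal globin genes whose reads cannot be split with certainty, fell 4.50-fold and 3.99-fold, EPOR, the erythropoietin receptor, 2.47-fold and KLF1, an erythroid transcription factor, 1.97-fold (edgeR adjusted p = 0.0318, 0.0418, 0.0100 and 0.0423). Granulocyte and monocyte markers gave 0 calls among 4 tested genes (3 at an unadjusted p under 0.05, 1 call with DESeq2 and 0 with limma-voom), with the integrin ITGAM at 244 ± 56.8 against 78.4 ± 43.3 CPM and the lectin CD33 at 181 ± 33.9 against 136 ± 37.9 CPM. Lymphoid markers gave 0 calls among 4 tested genes (3 at an unadjusted p under 0.05, 1 call with DESeq2 and 0 with limma-voom), with the B cell receptor chain CD79A at 34.2 ± 10.3 against 16.9 ± 8.98 CPM and the granule protein GNLY at 5.84 ± 0.712 against 14.0 ± 5.26 CPM. Without ERG replicate 1 or ERG replicate 2, edgeR called 0 of the 14203 tested genes (1278 and 1256 at an unadjusted p under 0.05), so the marker calls were lost there too. All 8 named mast cell and erythroid calls were also lost without vector replicate 2 (adjusted p = 0.0538 to 0.151), and without vector replicate 3 those of KIT, SLC18A2 and EPOR held (adjusted p = 0.0393 each). GATA2 was also lost without ERG replicate 3 (adjusted p = 0.0569) and KLF1 without vector replicate 1 (0.0526). Summed levels in ERG and vector libraries were 414 to 692 and 275 to 560 CPM for 5 of 13 granulocyte and monocyte markers, and 606 to 719 and 703 to 1360 CPM for 3 of 10 eosinophil markers. PRG2 made up nearly all of the eosinophil sum, with 1354 of the 1360 CPM in vector replicate 1. Other listed markers, among them the mast cell chymase CMA1 and the neutrophil enzymes MPO and ELANE, were not analysed here. The part of these markers in the differences of the 5 genes was not tested.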

How the data were processed

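Polyadenylated RNA was sequenced, per the labels' protocols. The values the authors deposited are read counts, whole numbers with unequal column totals, in a table named for CPM. The lowest second-highest CPM of any gene was 1.01, so a filter preceded deposit. The submitters' processing notes name the build hg38 and the tool edgeR 3.32.1. The aligner, counter, annotation and strand setting are not given in the sources used here. The columns not named for ERG were taken as the vector group, since the labels hold no further group, and 0 per-sample columns were left unused.

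Counts were fitted with edgeR 4.0.16 (R 4.3.3, TMM, quasi-likelihood, two-sided) over 14203 genes, leaving out 618, with Benjamini-Hochberg adjustment over all of them. The SE is the log2 difference divided by the square root of F. On simulated counts the fit recovered 86.7% of changes of 2 on the log2 scale and 31.2% of changes of 1 (13891 genes). The simulated libraries were drawn independently, without the likeness of ERG replicates 1 and 2 or the library sets, so these shares may not hold for the real counts. Alternatives were DESeq2 1.42.0, limma-voom 3.58.1, other normalisations and filters, a replicate term, a library-set term, ERG replicates 1 and 2 summed, and each library left out.

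The 5 genes and all lists were chosen with earlier results of these data known. Other genes named were set by role, or taken by rule: up to 4 calls with the largest differences per list, else the 2 highest by mean CPM, and the 3 genes most correlated with each of the 5 (at 5 CPM or more in whichever group was higher). Neighbours within 100 kb were named by position, of which 1 is not reported here. Promoter sequences are RefSeq's (GRCh38.p14), matched by symbol for 5 of 5 genes. Listed genes without a value, IL33 and PTGDS among them, were not analysed here.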

Additional observations from a re-analysis of the deposited data

How the results depend on the processing

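The log2 differences of the 5 genes were positive under all 15 alternatives, and moved by more than the spread between replicates in 1 case, MS4A3 without vector replicate 1. Their signs are not read as a result, since the groups did not overlap for any of the 5 genes and the same contrast led to their choice. Counts of calls depended on the processing. Over all genes, 313 passed with edgeR, 1006 with DESeq2, 1869 with the library-set term and 0 with ERG replicates 1 and 2 summed (1277 at an unadjusted p under 0.05), and leaving out 1 library gave 0 (without ERG replicate 1 or 2) to 441 (without ERG replicate 3 or vector replicate 1). Of the 95 pathway genes, 4 passed with edgeR, 18 with DESeq2, 36 with the library-set term and 0 with ERG replicates 1 and 2 summed (24 at an unadjusted p under 0.05), and 0 to 8 with 1 library left out. The cause of these shifts was not tested.

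With the replicate number as a block, 905 genes and 20 pathway genes passed, SYK and FCER1A among them (adjusted p = 0.0481 and 0.0179). The labels do not say whether the numbers pair the samples. The deviations of same-numbered libraries from their group means correlated at r = 0.628, -0.285 and 0.589, which does not settle it.

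LAT2 lost its call with RLE and upper-quartile normalisation, a 5 CPM filter and limma-voom (adjusted p = 0.0511, 0.0548, 0.0536 and 0.102), with ERG replicates 1 and 2 summed (0.208) and without any single library other than ERG replicate 3 (0.0529 to 0.211). Genes near 0 changed sign. The log2 difference of MYD88 was 0.0139 with upper-quartile normalisation, 0.00556 with the 5 CPM filter, 0.143 with the library-set term and 0.0601 with ERG replicates 1 and 2 summed, and that of MAPK14 was 0.0327, 0.021 and 0.033 in the first 3 of these. FCGR2A was at -0.34 with the library-set term (adjusted p = 0.0252) and -0.16 with the 2 libraries summed. With 1 library left out, MYD88 lay between -0.195 and 0.0727, MAPK14 between -0.0816 and 0.0612, FCGR2A between -0.193 and 0.484 and IRAK1 between -0.0315 and 0.0574.

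Few reads limit MS4A2 and FCER1A in the vector libraries, with 70 and 19 counts in all. The same limit holds for other named genes, among them MS4A4E (6, 2 and 5 vector reads), SCAMP5 (31, 13 and 12) and IL18RAP (23, 17 and 12).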
